A study of Mus musculus with 9 samples.

Results

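The cAMP phosphodiesterases described here are 10 genes, Pde3a, Pde3b, Pde4a, Pde4b, Pde4d, Pde7a, Pde7b, Pde8a, Pde8b and Pde10a, out of 22180 genes measured. They were taken by name from the transcript clusters (groups of probes for one transcript region) that carry a single gene symbol. The 10 names matched 11 clusters, as Pde7a had a second one, and each gene was read from the cluster with the highest mean over the 9 arrays. The cells were primary osteoblasts, the bone-forming cells, grown from the calvariae of C57BL/6J mice that were 7 to 10 days old. All groups were at passage 2, were differentiated from day 3 with ascorbic acid and β-glycerophosphate, and were kept without serum for 24 h from day 10. One group of 3 arrays was then given 100 nM human parathyroid hormone (1-34), hPTH(1-34), for 4 h. A second group of 3 received the bovine peptide (7-34) amide with D-Trp12 and Tyr34, bPTH(7-34), at 1 µM, and the third group of 3 received vehicle for the same time. The series text states that each replicate was a separate preparation of cells, and does not say if the treatments with the same number shared one preparation. The tests below treat the 9 arrays as unpaired, and their p-values rest on the spread between arrays of one group. If treatments shared preparations, differences between preparations stay in that spread.

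Phosphodiesterases break down the second messenger cAMP (and, for some families, cGMP) and so end the signal that a receptor coupled to the G protein Gs starts. The parathyroid hormone receptor Pth1r is such a receptor in osteoblasts, where hPTH(1-34) is an agonist and bPTH(7-34), which lacks the first residues, is known as an antagonist of cAMP formation. Several phosphodiesterase genes are known from other cells to be induced by cAMP itself, as a negative feedback. The families differ in substrate and regulation. PDE3 enzymes are inhibited by cGMP, PDE4, PDE7 and PDE8 enzymes prefer cAMP, and PDE10 hydrolyses cAMP and cGMP.

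Upstream sequence is shown for Pde10a, the member with the largest difference, and for Pde8a, whose hPTH(1-34) arrays also lay above all others. It is given as the bases just before their annotated starts. RefSeq windows (build GRCm38.p6) were found for 7 of the 10 members, 17 windows in all, and not for Pde3a, Pde3b or Pde7a. Each window covers the 250 bases before a start. They were searched on both strands for the cAMP response element TGACGTCA, its half-site TGACG (which every full element also contains), the GC box GGGCGG and the CCAAT box. Capitals mark the matches. The windows of Pde10a lie at chr17:8801495-8801744 and chr17:8849735-8849984, and that of Pde8a at chr7:81213015-81213264, all on the plus strand. The annotated Pde10a gene spans chr17:8525187-8986648, so both of its windows lie inside the gene, and its outermost start has no window. The windows of Pde4b and Pde7b also lie inside those genes, as do some of the windows of Pde4a and Pde8b. That of Pde8a ends just before the start of the gene.
Pde10a, first window: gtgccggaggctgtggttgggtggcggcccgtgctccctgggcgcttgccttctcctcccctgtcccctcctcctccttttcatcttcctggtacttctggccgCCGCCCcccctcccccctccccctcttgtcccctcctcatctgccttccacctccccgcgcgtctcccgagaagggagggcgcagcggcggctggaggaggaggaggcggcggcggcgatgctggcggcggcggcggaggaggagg
Pde10a, second window: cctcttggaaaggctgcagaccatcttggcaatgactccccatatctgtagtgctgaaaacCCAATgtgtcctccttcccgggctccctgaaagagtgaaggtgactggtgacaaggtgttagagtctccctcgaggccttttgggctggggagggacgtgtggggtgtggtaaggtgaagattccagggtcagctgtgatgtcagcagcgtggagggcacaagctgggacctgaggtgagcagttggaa
Pde8a: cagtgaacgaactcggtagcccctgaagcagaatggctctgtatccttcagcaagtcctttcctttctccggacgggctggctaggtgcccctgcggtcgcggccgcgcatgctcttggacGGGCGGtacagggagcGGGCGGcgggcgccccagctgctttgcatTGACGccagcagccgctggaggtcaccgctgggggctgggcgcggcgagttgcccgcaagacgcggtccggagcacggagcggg
The first Pde10a window, with a G and C content of 72.8%, holds 1 GC box, on the minus strand, from 146 to 141 bases before the start. The second Pde10a window holds 1 CCAAT box, from 189 to 185 bases before the start, and a G and C content of 56.0%. The Pde8a window holds 2 GC boxes and 1 half-site of the cAMP response element, from 84 to 80 bases before the start. Half-sites also stood in a window of Pde4b and in a window of Pde4a, each inside its gene. The hPTH(1-34) and vehicle arrays of Pde4b overlapped, as did those of Pde4a. The window of Pde4d, whose hPTH(1-34) arrays lay above all others, held no match. The full element was in 0 of the 17 windows, and in 1.55% of the windows of the same length in the RefSeq table. Half-sites stood in 17.8% of those windows, GC boxes in 32.7% and CCAAT boxes in 33.8%. A match is a string of letters, and its use in these cells was not measured.

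Across the whole table, array medians lay between 1.67 and 1.76 on the log2 scale, and pairs of arrays correlated at 0.977 to 0.982 within a group and at 0.972 to 0.985 between groups. The authors' values carry no detection calls. A background limit of 1.69 was set from 1105 olfactory receptor genes, as the 95th percentile of their means with vehicle. Of 11 measured osteoblast markers, 9 lay above it with vehicle, among them the bone collagen genes Col1a1 (12.29) and Col1a2 (11.69), Sparc (10.88) and the phosphatase gene Alpl (5.50), as vehicle means. Sp7 (1.45) and the osteocalcin gene Bglap (1.25) did not. Of the other cell types, 14 of 14 macrophage and osteoclast markers and 9 of 10 adipocyte markers lay above the limit with vehicle, as did 9 of 11 chondrocyte, 8 of 10 skeletal and smooth muscle, 4 of 10 endothelial and 0 of 4 blood markers. Some lay only just above it, such as Ocstamp (1.73) and Dcstamp (1.80) of the macrophage and osteoclast list and Slc2a4 (1.74) of the adipocyte list. No marker gene of any of the 8 lists passed the test in any comparison by limma, and 9 of the 76 measured entries had an unadjusted p under 0.05 for hPTH(1-34) against vehicle, where 9.31% of all clusters did. The smooth muscle calponin gene Cnn1, named here after its values were seen, had 5.54, 7.83 and 7.58 log2 units after hPTH(1-34), 4.92, 4.75 and 5.66 after bPTH(7-34), and 4.81, 4.92 and 5.14 with vehicle. Its difference between hPTH(1-34) and vehicle was 2.03 ± 0.52 (SE, adjusted p = 0.202), larger than that of any of the 10 phosphodiesterase genes, and its part in their results was not tested.

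**Figure D1:**
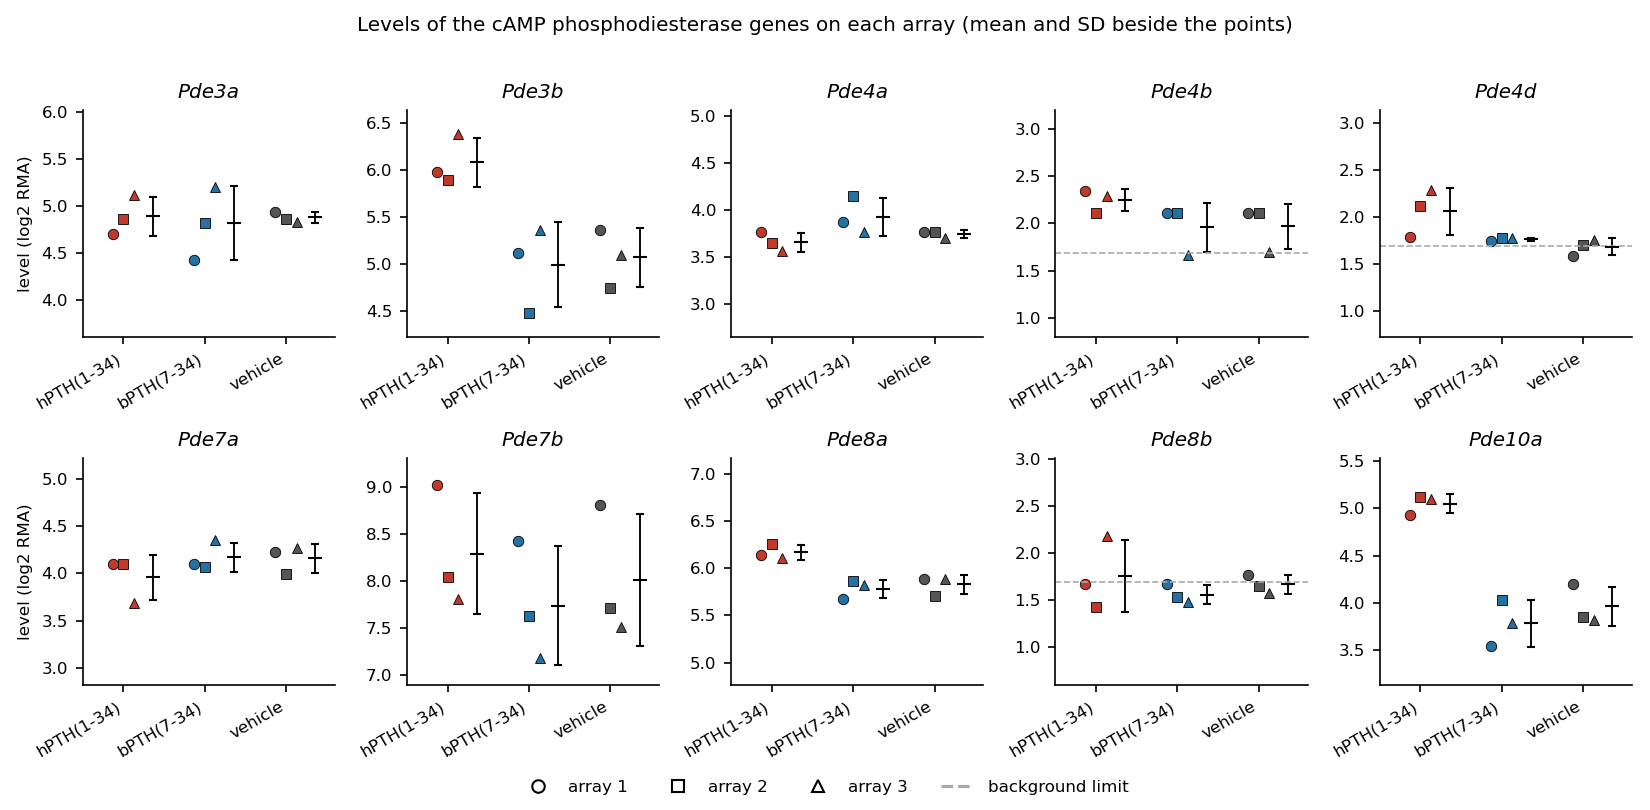
Level of each of the 10 genes (log2 RMA units) on each array, with hPTH(1-34), bPTH(7-34) and vehicle from left to right, array numbers as symbols, and the mean and SD of 3 arrays beside them. Every panel spans 2.4 log2 units. The 3 hPTH(1-34) arrays of Pde10a (4.93 to 5.12) lie above the other 6 (3.54 to 4.20), and Pde7b is highest on array 1 in each group.

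After hPTH(1-34), Pde10a was the member that rose, about 2-fold. Pde3b differed by a similar amount without passing the test, Pde8a and Pde4d by less, and the other 6 members had groups that overlapped. After bPTH(7-34), 0 members passed. Differences were tested with limma over 23521 clusters, adjusted by the Benjamini-Hochberg method with a threshold of 0.05. For hPTH(1-34) against vehicle 1 of 10 members passed, against 0.451% of all clusters in either direction and 0.31% upward. At an unadjusted p under 0.05 there were 4 members, all higher, against 9.31% of all clusters in either direction. The same 4, Pde10a, Pde3b, Pde8a and Pde4d, were those whose hPTH(1-34) arrays all lay above the vehicle arrays, and 10.7% of all clusters showed groups that did not overlap. The median difference over the 10 members was 0.28 log2 units, with 8 positive, and it was 0.00 over all clusters, of which 50.1% were positive. Members and lists were chosen with earlier results of these data known.

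Pde10a encodes the enzyme of both cyclic nucleotides best known from the striatum of the brain. Its cluster, 17333133, measured 4.93, 5.12 and 5.10 log2 units after hPTH(1-34), 3.54, 4.03 and 3.78 after bPTH(7-34), and 4.20, 3.85 and 3.82 with vehicle. All hPTH(1-34) arrays thus lay above all others by at least 0.73 log2 units, while the bPTH(7-34) and vehicle arrays overlapped. The mean after hPTH(1-34) was 5.05 ± 0.10 (SD, n = 3), after bPTH(7-34) 3.78 ± 0.25 and with vehicle 3.96 ± 0.21. hPTH(1-34) against vehicle gave a log2 difference of 1.09 ± 0.15 (SE), with a 95% interval from 0.76 to 1.43, a 2.13-fold rise with adjusted p = 0.0244. Leaving out a single array gave differences from 1.02 to 1.22. The test was no longer passed without hPTH(1-34) array 2 (adjusted p = 0.14), hPTH(1-34) array 3 (0.138), vehicle array 2 (0.15) or vehicle array 3 (0.131), nor with all 41345 clusters tested (0.0786) or the 6 arrays of the comparison fitted alone (0.0989). The unadjusted p stayed at or under 0.000309 in each of these fits, and with one of those 4 arrays left out 0 to 3 clusters were called, against 106 with all arrays. These were bulk samples, in which more cells of a type and more RNA per cell cannot be told apart.

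The cGMP-inhibited enzymes are encoded by Pde3a and Pde3b. Pde3b, the family member that acts downstream of insulin in fat cells, had 5.98, 5.89 and 6.38 log2 units after hPTH(1-34), 5.12, 4.48 and 5.36 after bPTH(7-34), and 5.36, 4.75 and 5.09 with vehicle. Each hPTH(1-34) array was above every array of the other groups. Its log2 difference between hPTH(1-34) and vehicle was 1.02 ± 0.24 (SE; 95% interval 0.47 to 1.56), or 2.02-fold, with adjusted p = 0.161 by limma. The size was close to that of Pde10a, and the standard error larger. Adipocyte markers were also higher on average on the hPTH(1-34) arrays, without passing the test. The mean level of the 10 measured markers was 4.08 to 4.64 on the hPTH(1-34) arrays, 3.93 to 4.34 on the bPTH(7-34) arrays and 3.88 to 4.26 on the vehicle arrays. Their median difference for hPTH(1-34) against vehicle was 0.36, in a range from -0.03 to 0.85, with Lep under the background limit. None passed, and 3 had an unadjusted p under 0.05 in limma, where 9.31% of all clusters did. For bPTH(7-34) against vehicle the median was 0.09, in a range from -0.12 to 0.53. Their part in the Pde3b result was not tested. Pde3a, best known from heart, platelets and oocytes, had 4.70, 4.86 and 5.12 after hPTH(1-34), 4.43, 4.82 and 5.20 after bPTH(7-34), and 4.94, 4.86 and 4.83 with vehicle. These groups overlapped throughout, and the difference between hPTH(1-34) and vehicle was 0.02 (95% interval -0.40 to 0.43, adjusted p = 0.991). The difference between Pde3a and Pde3b in response was not tested.

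The PDE4 genes encode the rolipram-sensitive, cAMP-specific enzymes, which protein kinase A activates in their long forms. Pde4d had 1.79, 2.11 and 2.28 log2 units after hPTH(1-34), 1.74, 1.77 and 1.77 after bPTH(7-34), and 1.58, 1.70 and 1.75 with vehicle. The hPTH(1-34) arrays were the highest, but the vehicle mean of 1.68 ± 0.09 (SD, n = 3) lay at the background limit of 1.69, so the size of the difference, 0.38 ± 0.12 (SE, adjusted p = 0.347), rests on a level that cannot be told from background. Pde4b had 2.34, 2.11 and 2.29 after hPTH(1-34), 2.11, 2.11 and 1.66 after bPTH(7-34), and 2.11, 2.11 and 1.70 with vehicle. The value 2.11 stood on 5 of its 9 arrays, in all 3 groups, and its lowest values, 1.66 and 1.70, lay near the background limit. hPTH(1-34) against vehicle gave 0.27 ± 0.16 (95% interval -0.09 to 0.63, adjusted p = 0.66). Pde4a had 3.77, 3.65 and 3.57 after hPTH(1-34), 3.87, 4.15 and 3.77 after bPTH(7-34), and 3.77, 3.77 and 3.70 with vehicle, a range of 3.57 to 4.15 over all arrays. Its difference between hPTH(1-34) and vehicle was -0.08 ± 0.11 (adjusted p = 0.868).

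Among the rolipram-insensitive PDE7 genes, Pde7b varied most between arrays of one group. It had 9.02, 8.04 and 7.81 log2 units after hPTH(1-34), 8.42, 7.63 and 7.18 after bPTH(7-34), and 8.81, 7.71 and 7.51 with vehicle. In each group array 1 was the highest and array 3 the lowest, and the SD within groups ran from 0.63 to 0.70, the largest of the 10 members. The difference between hPTH(1-34) and vehicle was 0.28 ± 0.44 (SE, 95% interval -0.71 to 1.27, adjusted p = 0.89). The spread between arrays exceeded this difference but followed the array number, which this fit does not account for. Between arrays of the same number, hPTH(1-34) exceeded vehicle by 0.21, 0.33 and 0.30, and bPTH(7-34) by 0.60, 0.41 and 0.63. Pde7a had 4.10, 4.10 and 3.69 after hPTH(1-34), 4.10, 4.07 and 4.35 after bPTH(7-34), and 4.23, 3.99 and 4.27 with vehicle. Its groups overlapped, and hPTH(1-34) against vehicle gave -0.20 ± 0.14 (adjusted p = 0.721). The second, dimmer Pde7a cluster lay between 0.94 and 1.83, under the background limit on 8 of 9 arrays.

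The PDE8 genes encode cAMP-specific enzymes of high affinity that the general inhibitor IBMX does not block. Pde8a had 6.14, 6.26 and 6.11 log2 units after hPTH(1-34), 5.67, 5.86 and 5.82 after bPTH(7-34), and 5.89, 5.71 and 5.89 with vehicle. The hPTH(1-34) arrays were all above the rest, by a small step and with an SD of 0.08 to 0.10 in the 3 groups. Its difference between hPTH(1-34) and vehicle was 0.34 ± 0.10 (SE; 95% interval 0.12 to 0.56), or 1.27-fold, with adjusted p = 0.258. Pde8b had 1.67, 1.43 and 2.18 after hPTH(1-34), 1.67, 1.53 and 1.48 after bPTH(7-34), and 1.77, 1.65 and 1.58 with vehicle. It exceeded the background limit on 2 of the 9 arrays, and its fitted difference between hPTH(1-34) and vehicle was 0.09 ± 0.17 (adjusted p = 0.912).

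**Figure D2:**
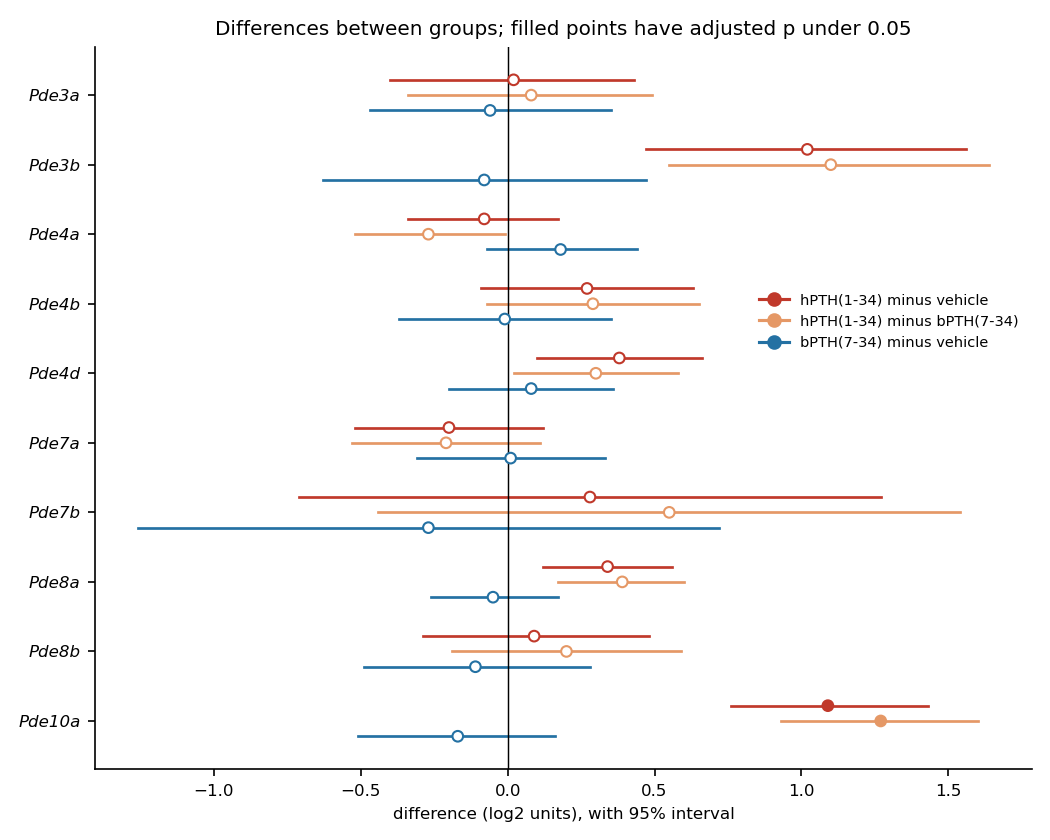
Differences of the 10 genes (log2 units, horizontal axis) with 95% intervals for hPTH(1-34) minus vehicle, hPTH(1-34) minus bPTH(7-34) and bPTH(7-34) minus vehicle. Filled points, those of Pde10a at 1.09 and 1.27, have an adjusted p under 0.05. All intervals of bPTH(7-34) minus vehicle hold 0.

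The comparison of bPTH(7-34) with vehicle addresses whether that peptide alone altered these genes. None of the 10 members passed in limma, 0 had an unadjusted p under 0.05, and 0 had groups that did not overlap. Over all clusters 0.0% passed, 3.32% had an unadjusted p under 0.05 and 5.29% had groups that did not overlap. The median difference of the members was -0.05 log2 units, with 3 of 10 positive, and all 10 adjusted p values were 0.999. For Pde10a the difference was -0.17 (95% interval -0.51 to 0.16), for Pde3b -0.08 (-0.63 to 0.47) and for Pde8a -0.05 (-0.26 to 0.17). A rise of Pde10a by more than 0.16 log2 units, or of Pde8a by more than 0.17, lay outside these intervals. The interval of Pde7b was the widest, at -0.27 (-1.26 to 0.72). The lowest p belonged to Pde4a, at 0.18 ± 0.11 (SE, 95% interval -0.07 to 0.44), and its bPTH(7-34) and vehicle arrays met at 3.77.

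Set against bPTH(7-34), the hPTH(1-34) arrays gave the same member past the threshold. The peptides were used at 100 nM and 1 µM, so these values compare the treatments as given and not at a matched dose, and the hPTH(1-34) arrays are shared with the comparison against vehicle. Pde10a was 2.41-fold higher after hPTH(1-34) than after bPTH(7-34), a log2 difference of 1.27 ± 0.15 (SE; 95% interval 0.93 to 1.60, adjusted p = 0.0147). The test was not passed without hPTH(1-34) array 2 (adjusted p = 0.0926), hPTH(1-34) array 3 (0.0949), bPTH(7-34) array 2 (0.0515) or bPTH(7-34) array 3 (0.0832), nor with all clusters tested (0.0587) or the 6 arrays alone (0.0912), with differences from 1.15 to 1.39 over all arrays left out in turn. Pde3b gave 1.10 ± 0.24 (0.55 to 1.64, adjusted p = 0.114) and Pde8a 0.39 ± 0.10 (0.17 to 0.60, adjusted p = 0.174). In all, 1 of 10 members passed, against 0.463% of clusters in either direction and 0.332% upward. An unadjusted p under 0.05 was found for 5 members, 4 higher and Pde4a lower (-0.27 ± 0.11, adjusted p = 0.497), against 9.52% of clusters. Groups did not overlap for 4 members, against 11.1% of clusters. The moderated F-test over the 3 groups also had 1 member past the threshold, Pde10a, with adjusted p = 0.0197.

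**Figure D3:**
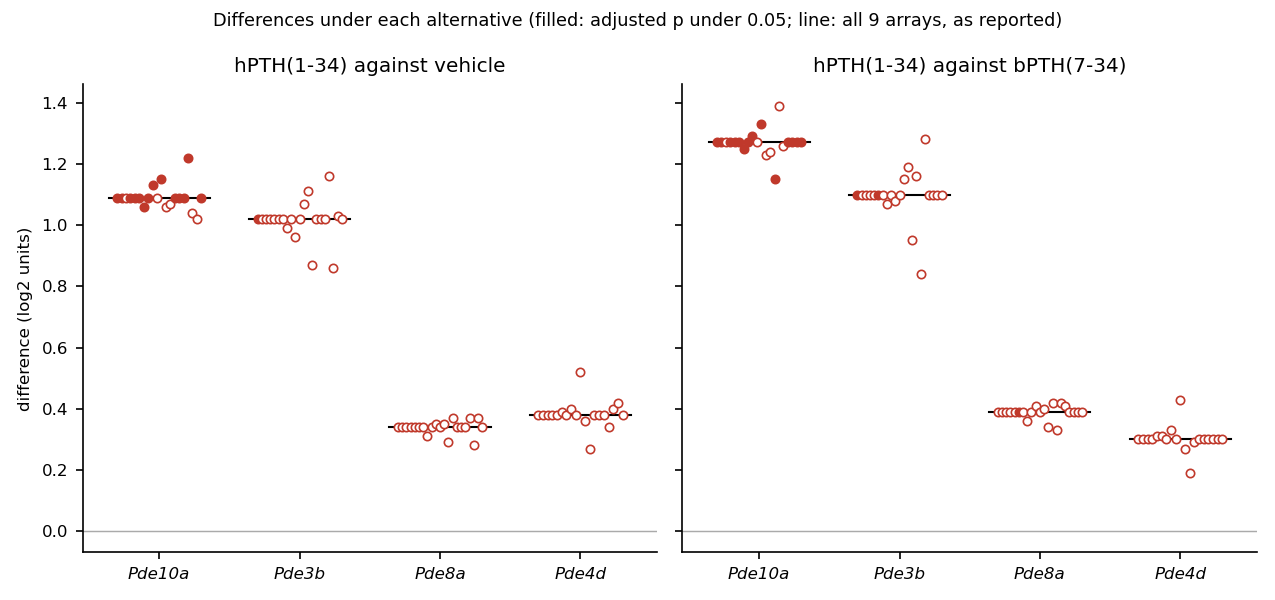
Differences (log2 units, vertical axis) of Pde10a, Pde3b, Pde8a and Pde4d for hPTH(1-34) against vehicle, on the left, and against bPTH(7-34), on the right, with 1 point per alternative processing or array left out and a line at the value reported. Pde10a stays between 1.02 and 1.22 on the left and between 1.15 and 1.39 on the right, and filled points have an adjusted p under 0.05.

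The genes nearest to Pde10a in pattern were ranked by the root mean square difference, over the 9 arrays, between log2 values taken as deviations from each gene's mean. Among 18717 genes the nearest were Ptpn2, a tyrosine phosphatase gene (0.144 log2 units), Il4ra, the interleukin-4 receptor alpha chain (0.161), and Metap1, a methionine aminopeptidase (0.165). Osbpl3, an oxysterol-binding protein gene (0.168), and Uck2, a uridine-cytidine kinase (0.169), followed. For comparison with Pde10a, Ptpn2 had 7.41, 7.65 and 7.58 log2 units after hPTH(1-34), 6.48, 6.65 and 6.30 after bPTH(7-34), and 6.73, 6.47 and 6.58 with vehicle. For hPTH(1-34) against vehicle the differences of the 5 genes were 0.91 to 1.25 log2 units, past the threshold for 4 of them and not for Osbpl3 (adjusted p = 0.096). For bPTH(7-34) against vehicle they ran from -0.12 to 0.02. Likeness was measured on the same arrays, so the ranking describes these arrays alone. Differences and calls like those of Pde10a follow from that choice of genes and are no separate evidence.

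**Figure D4:**
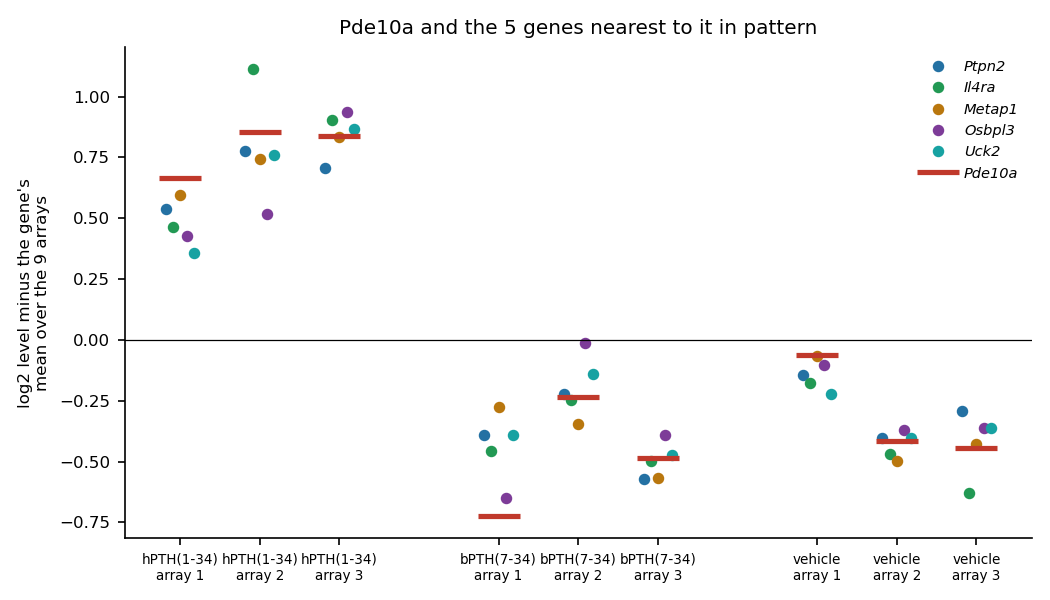
Level of Pde10a (bars) and of the 5 genes nearest to it in pattern (points), each minus its own mean over the 9 arrays (log2 units), on the arrays of hPTH(1-34), bPTH(7-34) and vehicle. All hPTH(1-34) values lie above 0, and all values of the other 6 arrays below it.

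The rest of the pathway was read from 7 lists with 90 measured genes. Of the other phosphodiesterases that hydrolyse cAMP, 0 of 6 passed for hPTH(1-34) against vehicle, with a median difference of -0.03 and 2 at an unadjusted p under 0.05. Pde11a (-0.33 ± 0.12 SE, adjusted p = 0.44) and Pde1c (-0.25 ± 0.10, adjusted p = 0.461) had the lowest p, with vehicle means at the background limit for Pde11a and under it for Pde1c. Of 8 cGMP phosphodiesterase and PDE6 genes 0 passed, with a median of -0.07. The PDE6 delta subunit gene Pde6d, which carries prenylated proteins, gave -0.38 ± 0.16 (adjusted p = 0.506), and the rod subunit gene Pde6b -0.32 ± 0.16 (0.591) at a level under the background limit. Upstream of the enzymes, 0 of 20 receptor, G protein and adenylyl cyclase genes passed, with a median of -0.01. The cyclase gene Adcy2 gave 0.34 ± 0.09 (adjusted p = 0.217), and the Gq subunit gene Gnaq -0.45 ± 0.16 (adjusted p = 0.41).

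Downstream, 0 of 8 protein kinase A subunit and inhibitor genes passed, with a median of -0.04. Its regulatory subunit genes Prkar1a and Prkar2a gave 0.24 ± 0.09 (adjusted p = 0.456) and 0.17 ± 0.16 (0.79). Of 8 other effectors and the cAMP exporter 0 passed, with a median of 0.00, and the exporter gene Abcc4 gave 0.51 ± 0.17 (adjusted p = 0.364) and the channel gene Hcn4 -0.41 ± 0.17 (0.492), with its mean after hPTH(1-34) (1.49) under the background limit. Among 20 scaffold genes that hold phosphodiesterases and protein kinase A in place, 2 rose, 0 fell and the median was 0.10, where 0.451% of all clusters passed and 0.31% passed upward. Ezr, which encodes the membrane linker ezrin, a protein that binds protein kinase A, rose 1.75-fold (0.81 ± 0.11, adjusted p = 0.025). The anchoring protein gene Akap2 rose 1.68-fold (0.75 ± 0.13, adjusted p = 0.0494). Of 20 cAMP/CREB target genes 5 rose and 0 fell, with a median of 0.24. They were the orphan receptor genes Nr4a3 (2.79 ± 0.23, adjusted p = 0.00556) and Nr4a2 (1.81 ± 0.21, 0.0149), the G protein regulator gene Rgs2 (1.36 ± 0.21, 0.0377), the transcription factor gene Crem (0.67 ± 0.11, 0.0442) and the RANKL gene Tnfsf11 (2.57 ± 0.43, 0.0468). All 7 of these scaffold and target calls were lost where 0 clusters passed, with the 6 arrays alone and without vehicle array 2 or vehicle array 3. Against bPTH(7-34), 6 of the 20 target genes passed as higher after hPTH(1-34), where 0.463% of all clusters passed and 0.332% passed upward. Nr4a1 (1.11 ± 0.17, adjusted p = 0.0335) and Nfil3 (0.99 ± 0.16, 0.0376) were among them and Tnfsf11 was not (0.0674). The lists were chosen with earlier results of these data known. Against vehicle, Nfil3 was lower after bPTH(7-34) (-0.42 ± 0.16, adjusted p = 0.999) and higher after hPTH(1-34) (0.57 ± 0.16, 0.234), neither past the threshold. Of the scaffold genes Ezr passed for hPTH(1-34) against bPTH(7-34) (0.65 ± 0.11, 0.0499). For bPTH(7-34) against vehicle 0 genes of these lists passed in limma, and 2 of the 90 entries had an unadjusted p under 0.05, against 3.32% of all clusters.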

How the data were processed

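The authors measured RNA with Affymetrix Mouse Gene 2.0 ST arrays from 100 ng of RNA. The deposited values are log2 expression per transcript cluster, made with Affymetrix Expression Console and RMA per the submitters' processing notes, in which versions are not given; the values have 2 decimals. The genome build of the array annotation is not given in the sources used here. The table holds 41345 clusters, of which the platform annotation gives a single symbol for 23521, several for 1814 and none for 16010.

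All 23521 were fitted at once in limma 3.58.1 (R 4.3.3; lmFit, eBayes) over the 9 arrays with a mean for each group and no other covariate, by two-sided tests with 6 residual and 3.2 prior degrees of freedom and Benjamini-Hochberg adjustment within each of 3 comparisons. Errors of differences are SE from this fit. On 20 simulated sets of 23521 clusters for hPTH(1-34) against vehicle with 200 changed, 22.9%, 74.2% and 97.3% of changes of 0.5, 1 and 2 log2 units were recovered, and 5.45% of calls were false. Alternatives were a replicate block (fixed or random), all clusters, 1 cluster per gene, filters on the mean of at least 3 or 5, median or quantile scaling, trend with robust fitting, array weights, the 6 arrays alone, the mean of a gene's clusters, and each array left out.

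The members and lists were chosen with earlier results of these data known. The text names all members, the 5 genes nearest to a member that passed (no predicted or small RNA genes), and from each pathway list the genes that passed or else at most 2 with the lowest p for hPTH(1-34). List genes without a single-symbol cluster, such as Runx2, were not analysed here. Arrays have no read depth, and 3 per group limit the precision. Plots used matplotlib 3.10.9.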

Additional observations from a re-analysis of the deposited data

How the results depend on the processing

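With 3 arrays per group the difference of Pde10a was steadier than its call. It kept its sign and an unadjusted p under 0.05 in all 20 alternatives against vehicle and against bPTH(7-34), but its adjusted p exceeded 0.05 with all clusters tested (0.0786 against vehicle, 0.0587 against bPTH(7-34)), with the 6 arrays alone (0.0989 and 0.0912), and without the arrays named above. Pde3b and Pde8a kept an unadjusted p under 0.05 in all 21 alternatives of both comparisons. For hPTH(1-34) against vehicle, the clusters called numbered 16 with all clusters (0 members), 186 with a mean of at least 3, 182 with a mean of at least 5 (0 members, as Pde10a is then not tested), 166 with array weights, 0 with the 6 arrays alone (0 members, 1936 clusters at an unadjusted p under 0.05 in limma), and 0 to 259 with an array left out (0 to 1 members). For hPTH(1-34) against bPTH(7-34) they numbered 3 (0 members), 215, 211 (2 members, Pde3b at adjusted p = 0.0404 and Pde8a at 0.0481), 204, 0 (0 members, 2066 clusters at an unadjusted p under 0.05) and 2 to 262 (0 to 1 members). With vehicle array 2 or 3 left out, the 0 calls against vehicle stood beside 1798 and 1927 clusters at an unadjusted p under 0.05. For bPTH(7-34) against vehicle 0 clusters were called under every alternative run.

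Arrays with the same number deviated together at correlations of 0.364, 0.072 and 0.174 between hPTH(1-34) and vehicle, 0.252, 0.065 and 0.179 between bPTH(7-34) and vehicle, and 0.241, 0.065 and 0.267 between hPTH(1-34) and bPTH(7-34). All of these were positive, while arrays of different numbers correlated at -0.294 to 0.138, most of them negatively. The numbers were not taken as pairs, as no shared preparation is stated and the values for array 2 were low. Vehicle array 2 correlated better with hPTH(1-34) array 3 (0.138) than with hPTH(1-34) array 2. The replicate block allows for an effect of the array number. With the replicate block, 112 clusters and 2 members, Pde3b (adjusted p = 0.0481) and Pde10a, were called against vehicle, and 116 clusters and 2 members, Pde3b (0.04) and Pde10a, against bPTH(7-34). As a random block it gave 127 and 149 clusters and 1 member each, Pde10a, with Pde3b at adjusted p = 0.117 and 0.0805. Pde7b passed under neither block. For hPTH(1-34) against vehicle its unadjusted p in limma was 0.54 without a block, 0.0219 with the fixed block (adjusted 0.332) and 0.502 with the random one. In the same order it was 0.244, 0.000595 (adjusted 0.0728) and 0.205 for hPTH(1-34) against bPTH(7-34). The values for bPTH(7-34) against vehicle were 0.559, 0.0269 (adjusted 0.994) and 0.522.

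Some differences, none past the threshold, changed sign, and the cause was not tested. Pde3a was -0.02 for hPTH(1-34) against vehicle after quantile scaling. For bPTH(7-34) against vehicle Pde7a was 0.00 after quantile scaling, -0.02 with array weights and -0.10 as the mean of both clusters, and Pde4b was 0.04 with array weights. With an array left out, hPTH(1-34) against vehicle ranged from -0.10 to 0.11 for Pde3a, -0.08 to 0.68 for Pde7b (0.28 with all arrays) and -0.12 to 0.26 for Pde8b. The same ranges for bPTH(7-34) against vehicle were -0.25 to 0.13 for Pde3a, -0.27 to 0.17 for Pde3b, -0.15 to 0.14 for Pde4b, -0.08 to 0.06 for Pde7a, -0.61 to 0.13 for Pde7b (-0.27 with all arrays) and -0.11 to 0.01 for Pde8a. For hPTH(1-34) against bPTH(7-34) they were -0.12 to 0.27 for Pde3a and -0.01 to 0.36 for Pde8b (0.20 with all arrays). Signal near background limits Pde4d, Pde8b, the second Pde7a cluster and Pde4b, which had 1.66 on bPTH(7-34) array 3 and 1.70 on vehicle array 3.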

Other observations

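Some members carried the same value, to 2 decimals, on several arrays. Pde4b stood at 2.11 on 5 arrays, Pde4a at 3.77 on 4 and Pde7a at 4.10 on 3. At least 4 arrays with an equal value were found in 5416 of the 23521 clusters with a single symbol (23.0%) and in 7984 of all 41345 clusters (19.3%). The effect of such ties on the spread within groups was not tested.

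The bone alkaline phosphatase gene Alpl, an osteoblast marker, had 6.32, 6.73 and 6.38 log2 units after hPTH(1-34), 5.32, 5.62 and 5.51 after bPTH(7-34), and 5.26, 5.86 and 5.39 with vehicle. Its hPTH(1-34) arrays lay above all others, with a difference from vehicle of 0.97 ± 0.17 (SE, adjusted p = 0.0601 by limma). It was chosen after its values were seen.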
